A study of Mus musculus with 11 samples.

Results

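Carbonic anhydrases are the enzymes that convert carbon dioxide and water into bicarbonate and a proton. Their expression in the colon was compared between germ-free and humanized mice. The genes were taken by symbol from the deposited count table and are Car1, Car2, Car3, Car4, Car8, Car9, Car12, Car13 and Car14, which makes 9 of the 43346 genes listed. All 9 were among the 19863 genes that passed a filter on low counts. Humanized mice expressed 2.53 times as much Car1 as germ-free mice, and Car1 was by far the most abundant of the 9 in both groups. Car12 and Car2 were higher by smaller amounts with the main scaling of libraries, but neither was called when libraries were scaled to total counts or to epithelial markers. No member was lower at the threshold used.

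All mice were male Swiss Webster mice of germ-free stock, studied at 8 to 10 weeks of age. The 5 germ-free mice stayed germ-free, and the 6 humanized mice received 300 μL of a human stool suspension by gavage at 4 to 5 weeks of age and were then left for 4 to 5 weeks. Stool of 1 human donor was used for all 6 humanized mice, so the group stands for 1 transplanted community, and all mice were kept singly in isolators. RNA with a poly(A) tail was sequenced from colonic tissue with a kit that does not mark strand, and neither the labels nor the methods name the stretch of colon used for RNA.

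Carbonic anhydrases bind zinc and differ mainly in where they work. Some are free in the cytosol, some are anchored in the plasma membrane with the catalytic domain facing outward, and a few have lost catalysis. In colonocytes, the absorptive cells of the colon surface, the cytosolic enzymes supply protons and bicarbonate to the exchangers that take up sodium and chloride. Car1 and Car4 are known for their abundance in colonic epithelium. Car9 and Car12 are known as genes that respond to low oxygen.

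Counts per mouse on genes ranged from 49097005 to 64148538 in germ-free mice and from 39125290 to 54219854 in humanized mice. Expression is given as RPKM, the read count scaled to gene length and library size, after TMM scaling, a method that sets library scales so that most genes do not change. The log2-fold change (LFC) is that of humanized over germ-free mice. Groups were compared with edgeR's exact test over all 19863 genes, and a gene was called at a false discovery rate (FDR, the adjusted p) below 0.01. Standard errors (SE) and 95% intervals of LFC came from edgeR's quasi-likelihood fit, and group values are mean ± SD with n = 5 and n = 6. Colonic RNA holds many cell types, and fewer cells of a type cannot be told apart here from less RNA per cell.

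The tissue carried the markers of colonic epithelium, but other cell types differed between groups. The RPKM of 11 epithelial markers summed to 4371 to 5821 in germ-free mice and to 4917 to 6869 in humanized mice, and 3 of the 11 were called higher. The most abundant of these markers, the keratin gene Krt8, had a mean of 1455 in germ-free and 1751 in humanized mice, with an FDR of 0.0957 by edgeR's exact test. All 10 smooth muscle markers were called lower by edgeR's exact test, with a summed RPKM of 316 to 945 in germ-free and 40.7 to 332 in humanized mice. The groups did not overlap for 4 of the 10. Des, Actg2, Lmod1 and Myh11 missed the threshold by edgeR's quasi-likelihood test (FDR 0.0116 to 0.0183). Of 10 markers of enteric neurons and glia, 8 were called lower. Of 8 endothelial markers, 0 were called by edgeR's exact or quasi-likelihood test, but 7 had an unadjusted p below 0.05 and 6 had groups that did not overlap. All 8 had an LFC below 0 (median -0.98), and they summed to 22.05 to 26.1 RPKM in germ-free and 2.81 to 19.8 in humanized mice. Of 5 macrophage markers tested, 1 was called lower and all had an LFC below 0. The Hox genes of the posterior body, which mark position along the gut, were low throughout: of 6 listed, 3 could be tested and 2 were called lower, with sums of 3.87 to 7.04 in germ-free and 0.508 to 3.001 in humanized mice. The part of muscle and other non-epithelial content and of position along the colon in the results that follow was not tested.

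Since muscle and neural markers were lower in humanized mice, each member was also fitted with libraries scaled to total counts or to the summed counts of the 11 epithelial markers. These scalings moved the median LFC of all genes by -0.18 and -0.24. The LFC under the latter is the change relative to the epithelial markers.

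By edgeR's exact test, 3 of the 9 members were called higher (Car1, Car2 and Car12) and 0 were called lower. Over all tested genes, 9.2% were called higher and 10.1% lower. The humanized and germ-free mice did not overlap for the same 3 members, all higher in humanized mice, while 8.67% of all tested genes were apart in that direction and 9.73% in the other. The median LFC of the 9 members was 0.24, against 0.0084 over all tested genes, and 8 of 9 LFC values were above 0 under TMM. Scaled to the epithelial markers, Car1 alone was called.

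**Figure D1:**
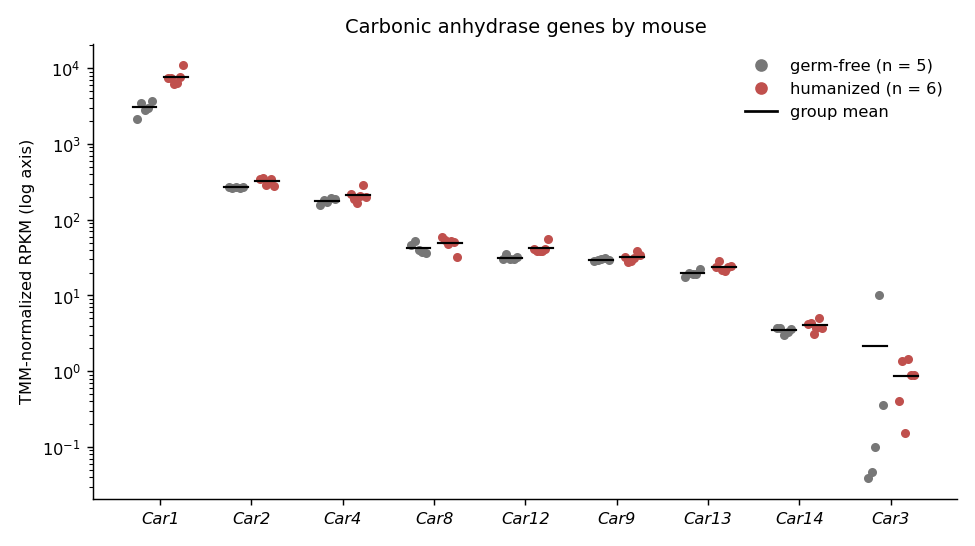
TMM-normalized RPKM (log axis) of each of the 9 carbonic anhydrase genes, with 1 point per mouse and a line at the group mean. Car1 stands far above the others in both groups, and the groups are apart for Car1, Car2 and Car12, while 1 germ-free mouse stands far above the others for Car3.

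Of the cytosolic enzymes, Car1 had the largest change among the 3 members called. It lies at chr3:14766216-14808368 on the minus strand of mm10. The germ-free mice had RPKM values of 2140.2, 3489.7, 2839.5, 3017 and 3736, and the humanized mice ranged from 6271 to 11124.5 with a median of 7356. Every humanized mouse was above every germ-free mouse, and the lowest humanized value was well clear of the highest germ-free value. The means were 3044 ± 620 and 7698 ± 1770, with an LFC of 1.34 (SE 0.18, 95% interval 0.95 to 1.73) and an FDR of 2.57e-12 by edgeR's exact test. An exact two-sided permutation test of the mice gave p = 0.00433, the smallest that 5 against 6 mice allow.

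The increase of Car1 was larger than the shift between scalings. Its LFC was 1.15 with total counts (edgeR FDR 2.74e-10) and 1.10 with epithelial scaling (edgeR FDR 5.79e-15). Per 1000 RPKM of epithelial markers, Car1 amounted to 490 to 652 RPKM in germ-free mice and to 1072 to 1632 in humanized mice, so the groups remained apart. None of the other 8 members had groups that stayed apart on this measure.

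Car1 took up a visible part of each library. Its share of all counts was lowest in germ-free mouse 1, at 0.298% (95% Wilson interval 0.296 to 0.299), and the highest germ-free share was 0.508%. In humanized mice the share ranged from 0.796% to 1.296%, the latter in humanized mouse 6 (95% Wilson interval 1.293 to 1.299). These intervals cover counting error only and are far narrower than the differences between mice. Ranked by counts, Car1 was between the 9th and the 13th gene in germ-free libraries and between the 4th and the 8th in humanized libraries.

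Car2, the fast cytosolic enzyme found in many secretory and absorptive epithelia, was the second most abundant member. It lies at chr3:14886273-14900770 on the plus strand. Germ-free mice had 274, 262, 269, 262 and 266 RPKM, and humanized mice ranged from 278 to 360.0 with a median of 327. The germ-free values lay close together, the humanized values spread more, and the lowest humanized mouse was just above the highest germ-free mouse. The LFC was 0.27 (SE 0.08), and edgeR's exact test gave an FDR of 0.00938, close to the threshold. The call was lost with edgeR's quasi-likelihood test (FDR 0.0226) and in 9 of the 11 fits that left out 1 mouse (FDR up to 0.0343, without germ-free mouse 4). It remained without humanized mouse 3 or 6. Under epithelial scaling the LFC was 0.02, with an FDR of 0.917 by edgeR's exact test.

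Car13, a cytosolic enzyme at chr3:14641727-14663002 on the plus strand, missed the threshold. Its RPKM was 17.3, 19.7, 19.1, 19.4 and 22.6 in germ-free mice and 20.9 to 28.2 with a median of 23.8 in humanized mice. The groups overlapped through germ-free mouse 5, the highest of its group. The LFC was 0.28 (SE 0.08), almost that of Car2, with an FDR of 0.0170 by edgeR's exact test. The FDR was 0.00531 without germ-free mouse 5 and 0.00955 without humanized mouse 4. The LFC under epithelial scaling was 0.05.

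Car3, a cytosolic enzyme of low activity that is abundant in fat, muscle and liver, was the least abundant member. It lies at chr3:14863512-14872523 on the plus strand. The germ-free mice had 7, 7, 17, 1827 and 72 counts, and the humanized mice had 42, 147, 21, 160, 123 and 127 counts. Germ-free mouse 4 was far above all other mice, while the rest of its group was mostly below the humanized mice. The LFC was -1.32 with an SE of 1.201 and an FDR of 0.428 by edgeR's exact test. Without germ-free mouse 4 the LFC was 2.64, with an FDR of 0.00550, so 1 mouse decided the direction.

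Some genes of fat cells had the same outlying mouse. The adipocyte genes Cfd (adipsin) and Adipoq (adiponectin) had 1023 and 333 counts in germ-free mouse 4, against at most 109 and 40 in any other mouse. The leptin gene Lep had 60 counts there and was at 0 in 8 of the other 10 mice. The RPKM of the 5 adipocyte markers of 9 that could be tested summed to 37.8 in this mouse, 11.6 to 13.7 in the other germ-free mice and 11.3 to 16.3 in humanized mice. Of those 5, Cfd alone gave 17.8 of the sum, and Cidec and Lipe were highest in humanized mice. Muscle sums were highest in the same mouse. The 5 of 10 skeletal muscle markers tested, of which 3 were called lower in humanized mice, summed to 13.4 RPKM there, against 4.41 to 7.91 in the other germ-free mice and 2.12 to 5.88 in humanized mice. Ckm (8.91 RPKM) and Acta1 (3.40) were highest in this mouse, the other 3 were highest in other mice, and Myh1 and Myh4 were at 0 in all mice. The smooth muscle sum was 945 there and 316 to 526 in the other germ-free mice. Whether attached fat or muscle gave the Car3 counts was not tested.

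**Figure D2:**
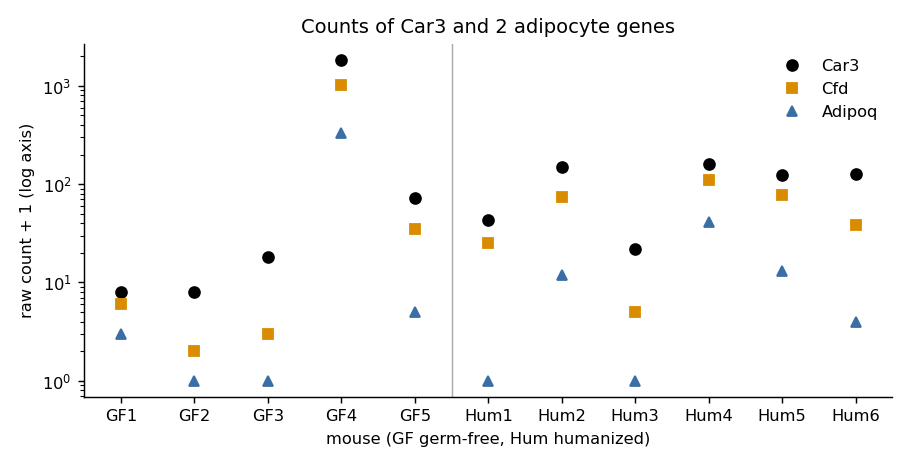
Raw counts (plus 1, log axis) of Car3 and of the adipocyte genes Cfd and Adipoq in each of the 11 mice. Germ-free mouse 4 holds the highest value of all 3 genes, with 1827, 1023 and 333 counts.

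The 4 cytosolic members lie close together on chromosome 3 in the order Car13, Car1, Car3, Car2, over 259.0 kb. Car13 and Car1 are 103.2 kb apart, Car1 and Car3 55.1 kb, and Car3 and Car2 13.7 kb. Car1 differed in its change from Car2 and Car13. The within-mouse log2 ratio of Car1 to Car2 was 1.08 higher in humanized mice, and that of Car1 to Car13 was 1.06 higher. Both differences had p = 0.00433 by the exact permutation test and an adjusted p of 0.0260 over the 12 pairs of members compared. As RPKM, Car1 was 7.81 to 14.0 times Car2 in germ-free mice and 20.3 to 40.1 times Car2 in humanized mice. Car2 and Car13 differed in their response by -0.02 on the log2 scale, with an exact permutation p of 0.857 and an adjusted p of 0.935. The ratio of Car2 to Car13 varied with an SD of 0.15 in each group, and how small a difference between them could have been found was not determined. None of the 3 pairs with Car3 differed past the threshold: the log2 ratio moved by -0.04 for Car1 to Car3, -1.12 for Car2 to Car3 and 1.10 for Car3 to Car13 (adjusted p 0.991, 0.589 and 0.589 by the exact permutation test), and these ratios had an SD of 3.08 to 3.16 among germ-free mice.

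Between Car13 and Car1 lies Gm5843, annotated as a pseudogene, and 13.4% of the 50-base stretches of Car1 transcripts also occur in it. Its counts were 3448 to 6955 in germ-free mice and 6524 to 14024 in humanized mice. This was 2.05% to 2.64% of the Car1 count in germ-free and 1.94% to 2.27% in humanized mice. Reads from the shared stretches may be split between the pair, and how many were placed on the wrong gene was not tested. None of the 50-base stretches of Car2, Car3 or Car13 occurred in another annotated gene.

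Car8 is a member without catalysis, known as a binding partner of the inositol trisphosphate receptor. It lies at chr4:8143362-8239041 on the minus strand. The germ-free RPKM values were 46.1, 51.7, 40.2, 37.1 and 36.8, and the humanized mice ranged from 31.7 to 59.5 with a median of 52.0. Humanized mouse 6, the highest of all for Car1, was the lowest of all for Car8. The LFC was 0.23 (SE 0.14, 95% interval -0.08 to 0.54), with an FDR of 0.272 by edgeR's exact test. Without humanized mouse 6 the LFC was 0.32 with an FDR of 0.0146, which also missed the threshold.

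Of the membrane-bound enzymes, Car4 is held by a lipid anchor on the apical surface, and Car9, Car12 and Car14 span the membrane. Car12 was the only one called. It lies at chr9:66713686-66766845 on the plus strand. The germ-free RPKM values were 29.97, 35.1, 30.1, 30.3 and 32.0, and the humanized values ranged from 38.6 to 56.1 with a median of 39.9. All humanized mice were above all germ-free mice, and humanized mouse 6 stood well above the rest of its group. The means were 31.5 ± 2.19 and 42.4 ± 6.82, with an LFC of 0.43 (SE 0.10, 95% interval 0.21 to 0.64) and an FDR of 6.81e-04 by edgeR's exact test. Without humanized mouse 6 the LFC was 0.33 and the FDR was 1.05e-04. Under epithelial scaling the LFC was 0.18, with an FDR of 0.219 by edgeR's exact test, and with total counts it was 0.24, with an FDR of 0.0682.

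Car4 was the most abundant membrane-bound member and was not called. It lies at chr11:84957786-84966044 on the plus strand. Its RPKM was 158, 179, 171, 196 and 188 in germ-free mice and 168 to 291 with a median of 201 in humanized mice. The groups overlapped, and humanized mouse 5 was the highest by a wide margin. The LFC was 0.24 (SE 0.12, 95% interval -0.02 to 0.51), with an FDR of 0.154 by edgeR's exact test. Without humanized mouse 5 the LFC was 0.13, and under epithelial scaling it was -0.01.

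Car9 and Car14 differed between groups by less than could be resolved. Car9 (chr4:43506966-43513729, plus strand) had 28.5, 29.5, 30.3, 30.9 and 29.5 RPKM in germ-free mice and 27.9 to 38.4 with a median of 31.6 in humanized mice. The germ-free mice were nearly alike, and the humanized mice lay on both sides of them. The LFC of Car9 was 0.11 (SE 0.08, 95% interval -0.06 to 0.28), with an FDR of 0.405 by edgeR's exact test, and it was below 0 with total counts (-0.08) and epithelial scaling (-0.15). Without humanized mouse 5 it was 0.05.

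Car14 (chr3:95897768-95904691, minus strand) lies on the same chromosome as the cytosolic members but far from them. Its RPKM was 3.71, 3.70, 2.98, 3.29 and 3.65 in germ-free mice and 3.09 to 4.98 with a median of 4.00 in humanized mice. The groups overlapped only through humanized mouse 3, the lowest of its group, and the other 5 humanized mice were above all germ-free mice. The LFC of Car14 was 0.21 (SE 0.12, 95% interval -0.05 to 0.48), with an FDR of 0.305 by edgeR's exact test, and it was -0.04 under epithelial scaling and 0.14 without humanized mouse 5. Some reads of Car9 and Car14 cannot be assigned with certainty without strand: the antisense gene Gm12454 shares 9.29% of the exon bases of Car9, and Aph1a on the other strand shares 17.5% of those of Car14.

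**Figure D3:**
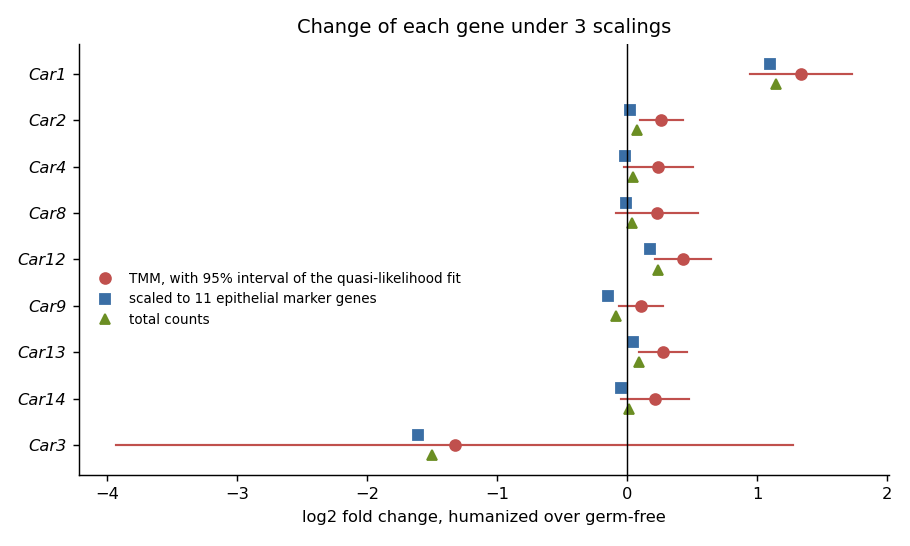
LFC of each member, humanized over germ-free, with TMM (points, with the 95% interval of the quasi-likelihood fit), with libraries scaled to 11 epithelial marker genes (squares) and with total counts (triangles). Car1 stays above 1 under all 3, while the other members except Car3 lie between -0.15 and 0.18 under epithelial scaling.

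Among the 6 pairs of membrane-bound members, no difference in response passed the threshold after adjustment over the 12 pairs. The largest was that of Car9 against Car12, whose log2 ratio was 0.32 lower in humanized mice. Its exact permutation p was 0.0130 and its adjusted p was 0.0519. Car4 and Car14 differed by 0.02, and the ratio had an SD of 0.19 in germ-free and 0.14 in humanized mice.

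Car9 and Car12 are both known as targets of the hypoxia-inducible factors, so their promoters are shown together with that of Car14. The letters searched were ACGTG and their reverse complement CACGT, a form of the core of the hypoxia response element. They are called the core below, and other forms were not searched. Both strands of the 250 bases before each RefSeq transcript start (build GRCm38.p6) were searched, and the pair of words overlap where they form CACGTG. Of 32851 such windows, 16.6% held the core. Windows were given for 4 of the 9 members (Car4, Car9, Car12 and Car14), and 2 of the 4 held it. Both are shown as the last 30 bases before the start, read 5′ to 3′ on the strand of the gene, with the core in capitals. The Car9 stretch is chr4:43506996-43507025 (plus strand), and the core ends 13 bases before the start. The deposited gene model of Car9 begins at 43506966, so all 30 bases shown lie inside it. The Car14 stretch is chr3:95904686-95904715 (minus strand), and the core ends 2 bases before the start. The deposited model of Car14 begins at 95904691, within the core.
Car9: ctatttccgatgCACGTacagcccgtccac
Car14: agcccaggcaccacccccctcctCACGTac
The whole window of Car12, chr9:66713436-66713685 (plus strand), is shown because Car12 was the membrane-bound member that was called. It holds no copy of these letters, so nothing is in capitals.
Car12: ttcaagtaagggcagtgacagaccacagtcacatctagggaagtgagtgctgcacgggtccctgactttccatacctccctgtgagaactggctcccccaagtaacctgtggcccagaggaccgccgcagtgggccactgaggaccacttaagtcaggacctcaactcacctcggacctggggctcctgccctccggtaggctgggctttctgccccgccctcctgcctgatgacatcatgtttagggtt
The window of Car4 at chr11:84957504-84957753 held none either. A match of letters is a description of the sequence only. In the data, the members with the core, Car9 and Car14, had LFC values of 0.11 and 0.21 with TMM. Those without it, Car12 and Car4, had 0.43 and 0.24. Under epithelial scaling the values were -0.15 and -0.04 for Car9 and Car14, and 0.18 and -0.01 for Car12 and Car4. Whether the core bears on these values was not tested.

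Other genes known to respond to hypoxia were measured alongside. All 12 of the list were tested, 2 were called higher and 0 lower, and their median LFC was 0.20. The shares over all tested genes were 9.2% higher and 10.1% lower, and the 11 epithelial markers had a median LFC of 0.27. The lactate dehydrogenase gene Ldha, the most abundant of the 12, had 231 ± 16.3 RPKM in germ-free and 315 ± 44.2 in humanized mice (LFC 0.45, edgeR FDR 2.37e-04). The glucose transporter gene Slc2a1 had an LFC of 0.30 and an edgeR FDR of 0.166.

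The order of the members by level was the same in both groups by their means. By mean RPKM per length it ran Car1, Car2, Car4, Car8, Car12, Car9, Car13, Car14 and Car3. The ranges of Car12 and Car9 overlapped in germ-free mice, as did those of Car14 and Car3. In humanized mice the ranges of Car2 and Car4, of Car8 and Car12, and of Car9 and Car13 overlapped. Within each group, the neighbours not named for it were apart. In GENCODE vM21 the exons of Car12 cover 7597 bases against a deposited length of 4539, so its place in the order depends on the length used.

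Car1 made up most of the family's RNA. Summed over the 9 members, RPKM was 2698 to 4315 in germ-free mice and 6866 to 11752 in humanized mice. Car1 contributed 79.3% to 86.6% of this in germ-free and 90.6% to 94.7% in humanized mice. Without Car1 the other 8 members summed to 558 to 589 in germ-free and 595 to 796 in humanized mice. The lowest humanized sum was thus just above the highest germ-free sum with TMM. Per 1000 RPKM of epithelial markers, the 8 summed to 99.5 to 128 in germ-free and 92.1 to 129 in humanized mice, so the groups overlapped.

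The members also differed in how much the mice of a group varied. In germ-free mice the coefficient of variation was 1.94% for Car2, 3.11% for Car9 and 20.4% for Car1. In humanized mice it was 10.3% for Car2, 12.4% for Car9 and 23.0% for Car1. Apart from Car3, each of the 8 other members varied more among humanized than among germ-free mice, and this difference in spread was not tested. Without humanized mouse 6, Car1 (8.93%), Car8 (7.98%) and Car12 (3.13%) varied less among humanized than among germ-free mice, and the other 5 still varied more. Humanized mouse 6 had the highest Car1 and Car12 and the lowest Car2 and Car8 of its group. Humanized mouse 5 had the highest Car4, Car9 and Car14 and also the highest sum of epithelial markers. Its smooth muscle sum of 40.7 was the lowest of the 11 mice.

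**Figure D4:**
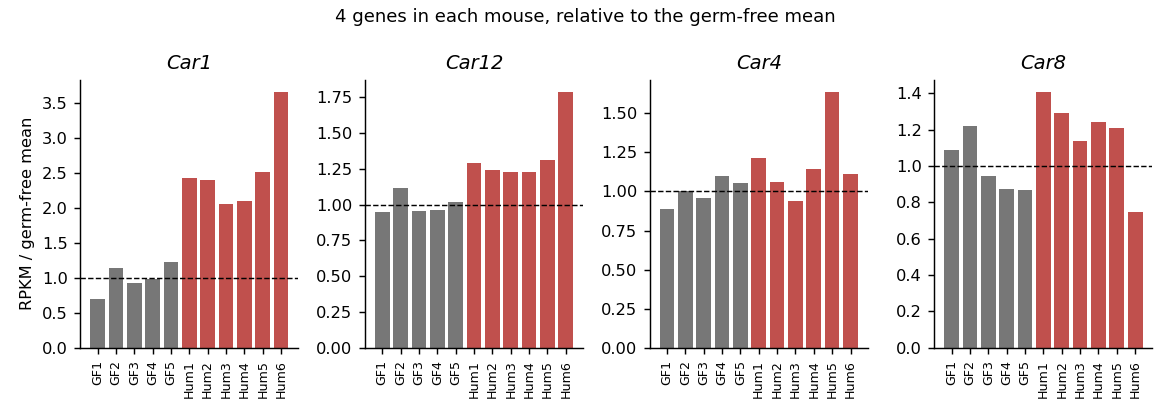
RPKM of Car1, Car12, Car4 and Car8 in each mouse (GF germ-free, Hum humanized), divided by the mean of the 5 germ-free mice, which is marked by the dashed line. Humanized mouse 6 is the highest for Car1 and Car12 and the lowest for Car8, and humanized mouse 5 is the highest for Car4.

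Genes that varied between mice most like each member were named by the Pearson correlation of log2 CPM (counts scaled to library size) after subtraction of each group's mean. There were 14695 candidates with a mean RPKM of at least 1, and each r is over the same 11 mice, so it is a description only. Car1 was most like Akr1b7 (r = 0.98), followed by Dlst, Plek2, Pmp22 and Itga6. Car12 was most like Slc26a3 (r = 0.96), the chloride and bicarbonate exchanger of colonocytes, followed by Anpep, Fam214b, Atp8a1 and Myl6b. Slc26a3 itself was 70.5 RPKM in humanized mouse 6 and at most 19.9 in the other mice, with an LFC of 1.13 and an edgeR FDR of 0.0316. Among members, Car1 and Car12 had an r of 0.83, and Car4 and Car9 had an r of 0.85. Humanized mouse 6 was the highest for both Car1 and Car12, and humanized mouse 5 for both Car4 and Car9. How far these r values rest on single mice was not tested.

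No other transporter of the bicarbonate and proton list was among the genes most like a member. Car2 was most like Tvp23b (r = 0.93), Rab19, Sult1c2, Rbm3os and Gm12112. Car13 was most like Capza1 (r = 0.95), Trim40, Tagap1, Hmgxb4 and Gm6501, and Car3 was most like Cfd (r = 0.97), Fbxo30, Rps15a-ps6, Nek9 and Mmd. Car4 was most like Galm (r = 0.97), Micalcl, Gm5577, Akr1c13 and Papd7. Car8 was most like Arhgef28 (r = 0.97), Ccl6, Elovl5, Smim14 and Gm26892. Car9 was most like Wsb2 (r = 0.99), Src, Vrk3, Zbtb7b and Gna11, and Car14 was most like Naip2 (r = 0.94), Glod4, Tmbim4, 4930506C21Rik and Gm12502.

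The other 7 carbonic anhydrase genes of the table were scarce. Car5b, a mitochondrial enzyme, was the only one of the 4 that passed the low-count filter to be called. Its RPKM was 0.222, 0.201, 0.234, 0.378 and 0.277 in germ-free mice and 0.0961 to 0.190 with a median of 0.160 in humanized mice. Every humanized mouse was below every germ-free mouse. The LFC was -0.82 (SE 0.23), with an FDR of 0.00860 by edgeR's exact test and 0.0202 by its quasi-likelihood test. Car7, a cytosolic enzyme, had an LFC of -0.61 (edgeR FDR 0.282). Car11, which lacks catalysis, had an LFC of 0.36 (edgeR FDR 0.331). Car15, a lipid-anchored enzyme, had an LFC of 0.09 (edgeR FDR 0.774). The mitochondrial Car5a had 1 to 6 counts per mouse, and the secreted Car6 had 2 to 17. Car10, another member without catalysis, had 0 to 7 counts in germ-free mice and 0 in all 6 humanized mice, too few to compare.

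Carbonic anhydrases feed transporters of bicarbonate and protons, and 21 of 26 such transporters and their scaffolds could be tested. By edgeR's exact test, 3 were called higher and 3 lower, with a median LFC of 0.08, while 9.2% of all genes were called higher and 10.1% lower. The 3 called higher carry sodium, protons or short-chain fatty acids across the colonocyte membrane. Slc16a1, the monocarboxylate transporter MCT1, rose from 28.4 ± 1.79 to 57.0 ± 12.9 RPKM (LFC 1.002, FDR 1.47e-10), and its groups did not overlap. Slc5a8, a sodium-coupled monocarboxylate transporter, rose from 35.9 ± 5.57 to 63.4 ± 14.1 RPKM (LFC 0.82, FDR 2.96e-06), also without overlap. Slc9a3, the apical sodium and proton exchanger NHE3, rose from 30.5 ± 7.67 to 50.1 ± 7.07 RPKM (LFC 0.72, FDR 1.47e-04), with overlap between groups. Under epithelial scaling, Slc16a1 (LFC 0.74, edgeR FDR 8.18e-08) and Slc5a8 (LFC 0.58, edgeR FDR 0.00362) kept their calls, and Slc9a3 did not (LFC 0.48, edgeR FDR 0.0249).

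The 3 partner genes called lower were weakly expressed. Best2, a bicarbonate channel of goblet cells, fell from 4.56 ± 0.979 to 2.93 ± 0.650 RPKM (LFC -0.64, edgeR FDR 0.00674). Slc4a3, an anion exchanger, fell from 0.628 ± 0.157 to 0.238 ± 0.102 RPKM (LFC -1.40, edgeR FDR 6.76e-05). Atp12a, the colonic proton and potassium pump, was at 0.0580 to 0.316 RPKM in germ-free mice and at 0 to 0.0689 in humanized mice (LFC -2.52, edgeR FDR 0.00104). Of these 3, Slc4a3 alone was also called by edgeR's quasi-likelihood test.

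The most abundant partners beside Slc5a8 were not called with TMM. The scaffold gene Slc9a3r1 had 150.0 ± 14.1 RPKM in germ-free and 146 ± 24.5 in humanized mice, with an edgeR FDR of 0.862. The basolateral anion exchanger gene Slc4a2 had an LFC of 0.19 (edgeR FDR 0.220), and the sodium and proton exchanger gene Slc9a2 had an LFC of 0.32 (edgeR FDR 0.115). Under epithelial scaling Slc9a3r1 was called lower (LFC -0.29, edgeR FDR 0.00278), and the LFC was -0.07 for Slc4a2 and 0.05 for Slc9a2.

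**Figure D5:**
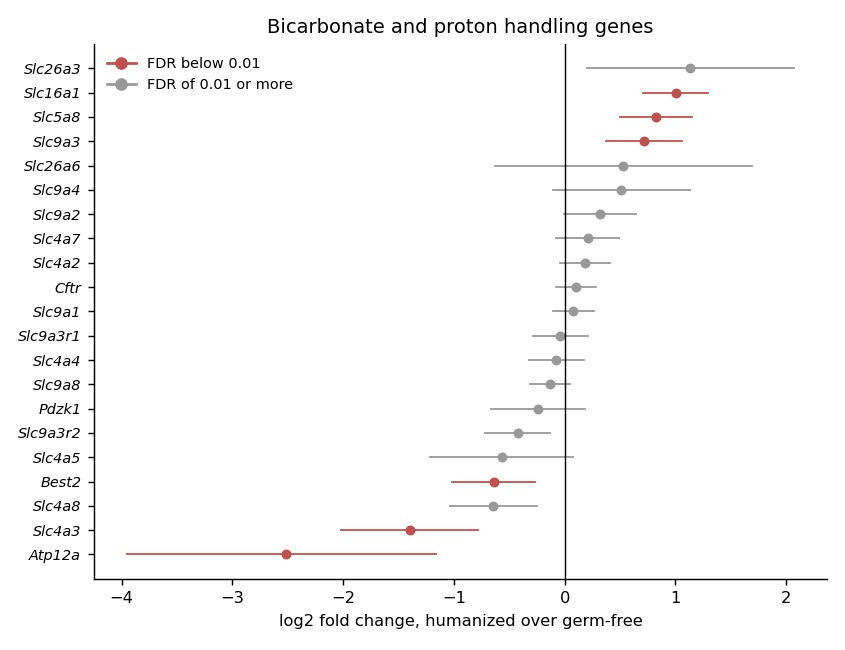
LFC, humanized over germ-free, of the 21 tested genes that handle bicarbonate and protons, with the 95% interval of the quasi-likelihood fit. Genes with an FDR below 0.01 by edgeR's exact test are in red: Slc16a1, Slc5a8 and Slc9a3 on the right, and Best2, Slc4a3 and Atp12a on the left.

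Markers of the epithelial cell states that express carbonic anhydrases were counted beside the members. Among all tested genes, 9.2% were called higher and 10.1% lower, and the 11 epithelial markers had a median LFC of 0.27. Of 10 markers of mature colonocytes, 4 were called higher and 0 lower, with a median LFC of 0.43. Their summed RPKM was 6035 to 6827 in germ-free and 6200 to 10572 in humanized mice. Lypd8, the most abundant of them, rose from 3050 ± 113 to 4183 ± 826 RPKM (LFC 0.46, edgeR FDR 0.00224), while Guca2a, the guanylin gene, had an LFC of -0.28 (edgeR FDR 0.127). The groups overlapped for Lypd8, and its FDR was 0.0206 by edgeR's quasi-likelihood test. Of 8 markers of crypt base and cycling cells, 0 were called higher and 4 lower. The 4 were the crypt base genes Lgr5, Ascl2, Axin2 and Smoc2 (LFC -1.09 to -0.38), while the 4 cycling genes Mki67, Top2a, Pcna and Mcm2 had LFC values of -0.02 to 0.16 and were not called. Of 8 goblet cell markers, 4 were called higher and 0 lower. None of these 4 (Fcgbp, Tff3, Spink4 and Zg16) was called by edgeR's quasi-likelihood test, with FDR values of 0.0104 to 0.0303. Red blood cells, which also hold carbonic anhydrase, left low signals: 6 of 8 erythroid markers were tested, 0 were called, and their RPKM summed to 45.6 to 116 in germ-free and 48.3 to 143 in humanized mice. Whether the share of mature colonocytes differed between groups, and how far this goes with the Car1 result, was not tested.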

How the data were processed

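Colonic poly(A) RNA of 11 mice was sequenced as 101 bp paired-end reads. The authors aligned reads to mm10 with TopHat2 2.1.0 and Bowtie2 2.2.3 and counted them per gene with featureCounts of Subread 1.4.6-p5. The deposited counts are raw counts without normalization, 1 column per mouse. The deposited table also gives coding lengths, which equal the exon bases of GENCODE vM21 for 8 of the 9 members. Each column was assigned to its mouse by its label.

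The analysis used edgeR 4.0.16 in R 4.3.3. Genes were filtered with filterByExpr (minimum count 10, minimum total 15, large sample size 10, minimum proportion 0.7), normalized with TMM, and tested by the exact test, with p-values adjusted by Benjamini–Hochberg over 19863 genes and called at FDR below 0.01. RPKM and log2 CPM (prior count 2) used TMM-scaled libraries. Pairs of members were compared by exact two-sided permutation of the mice, with correction over 12 pairs at 0.05. Figures were drawn with matplotlib 3.10.9. On simulated counts with these libraries (19670 genes), the exact test found 94 of 100 genes changed 2-fold, 8 of 100 changed 1.3-fold, and made 1 false call. Small changes were thus mostly missed in the simulation. Far fewer genes changed there than were called in the real data, so these rates do not carry over to it.

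Mice of 1 group differed by far more than counting error (mean chi-square per gene 21.2 to 132), and no libraries agreed within it. Alternatives were edgeR's quasi-likelihood test, DESeq2 1.42.0, other scalings, filters and thresholds, leaving out each mouse, and a replicate block. Neither the labels nor the methods pair the mice of the groups by number. No batch is named in the labels or methods.

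The genes, lists and tests were chosen with earlier results of these data known. Named were all members and other family genes, partner genes that were called or among the 4 most abundant, the most abundant list genes, and the 5 genes most like each member. Adipoq, Lep, Gm5843, the skeletal muscle genes and the crypt genes were chosen after seeing their values. Proteins and reads were not analysed here.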

Additional observations from a re-analysis of the deposited data

Results flagged for a closer look

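The values of each member in each group (18 sets of 5 or 6 mice) were screened for a mouse far from the rest of its group by Dixon's criterion, and 3 were found. Chance alone gives about 1 in 20 such sets. Humanized mouse 6 had a Car1 RPKM of 11124.5, with the next humanized mouse at 7663. The same mouse had a Car12 RPKM of 56.1, with the next at 41.3. Germ-free mouse 4 had a Car3 RPKM of 10.2, with the next germ-free mouse at 0.360.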

How the results depend on the processing

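The call of Car1 held in all 21 alternatives, with an LFC from 1.10 to 1.42 and an FDR up to 0.00336. Car2 lost its call in 17 of 21 alternatives, Car12 in 3, and Car13 gained one in 3. The number of members higher (3 in the main analysis) was 1 with total counts, 1 with epithelial scaling, 1 at an absolute LFC above 1, 1 with the replicate block (mice 1 to 5, quasi-likelihood test, where the fit without the block gave 2), and 2 to 3 when 1 mouse was left out. The count of members lower was 0 in each alternative, but Car3, the one member with a main LFC below 0, had no value with DESeq2 or with at least 10 counts in every mouse. The number of partner genes lower (3) was 1 by the quasi-likelihood test, 6 with total counts, 5 with epithelial scaling, 5 at FDR below 0.05, 1 with the replicate block, and 2 to 4 when 1 mouse was left out. The number of partner genes higher (3) was 1 at an absolute LFC above 1, 2 with epithelial scaling, and 4 at FDR below 0.05 and with the replicate block. The LFC turned below 0 for Car9 with total counts (-0.0811) and, with epithelial scaling, for Car4 (-0.014), Car8 (-0.0075), Car9 (-0.145) and Car14 (-0.0433). The LFC of Car3 ranged from -1.64 to 2.64 when 1 mouse was left out, above 0 without germ-free mouse 4, and was 1.35 with the replicate block (mice 1 to 5, edgeR FDR 0.423). The 2 member pairs that differed became 0 to 3 when 1 mouse was left out. Without 1 germ-free mouse the design could not pass the threshold with only 2 pairs at the smallest possible p. Causes of these changes were not tested. The spread without humanized mouse 6 and the sum of the 8 members per epithelial marker were added after seeing the data.

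Deviations from the group means showed little likeness between mice with the same number (r from -0.13 to 0.09), so no pairing by number was seen. With the replicate block, 1002 genes were called over all genes, against 2078 by the same quasi-likelihood test without it. Depth limits Car3 most, with 7 to 160 counts in 10 of the 11 mice, while the other 8 members had at least 370 counts in each mouse.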
